A study of Mus musculus with 11 samples.

Results

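Ezh2 transcript differed in level among tumours that carried a hairpin against it, and the cause of this spread was not tested. Among 9 mouse high-grade gliomas labelled as Ezh2 knockdown, 5 kept Ezh2 above 14 CPM and 4 had less than 12 CPM. CPM is the share of a library's gene counts that fall on a gene, in the usual per-million unit and scaled by TMM factors. These 9 are the knockdown libraries of a series of 11, the other 2 being control tumours. The sides were chosen by the measured Ezh2 CPM of the same libraries, so they are not treatment groups, and a gene that differs between them is associated with residual Ezh2 and nothing more. Knockdown tumours 1, 2, 3, 5 and 9 form the side with more Ezh2, and knockdown tumours 4, 6, 7 and 8 the side with less.

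All 11 tumours came from subventricular zone neural stem cells of mice, 7 days old, that carried conditional alleles, among them p53, Ink4a/Arf and LucR, and a lentivirus with CMV-Cre recombined these alleles in culture. These glioma initiating cells carried the doxycycline-responsive hairpin FH1-tUTG-shEzh2, also in the control tumours, were sorted for GFP and grew in the brains of NOD-SCID mice, which lack mature B and T cells. The labels of every tumour, controls included, name doxycycline at 2 mg/ml with 1% sucrose in the drinking water, whereas the design text speaks of mice with or without the drug. Nothing says which tumours shared a cell preparation or a litter, so the spread that p-values rest on may be technical in part.

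Ezh2 is the catalytic subunit of Polycomb repressive complex 2 (PRC2), which methylates histone H3 at lysine 27 and keeps developmental genes silent. It works with the core subunits Suz12 and Eed and can be replaced in part by its paralog Ezh1, and the mark is read by Polycomb repressive complex 1 (PRC1). In neural stem cells and gliomas PRC2 is known for holding differentiation genes in check, and Ezh2 transcript is known to be more abundant in dividing than in resting cells.

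Ezh2 (ENSMUSG00000029687, mm9 chromosome 6, 47480273 to 47545340) stood at 18.7, 14.9, 30.4, 14.6 and 30.1 CPM in knockdown tumours 1, 2, 3, 5 and 9. It stood at 10.6, 11.2, 8.31 and 7.27 CPM in knockdown tumours 4, 6, 7 and 8, and at 45.3 and 52.7 CPM in the controls. Knockdown tumours 3 and 9 lay well apart from the other 7, and every knockdown tumour lay under both controls (exact two-sided permutation p = 0.018, the smallest that 9 against 2 allows). As a share of the control mean, the side with more Ezh2 kept 44.4% (21.7 ± 7.93 CPM, SD, n = 5) and the side with less kept 19.1% (9.34 ± 1.86 CPM, SD, n = 4), a ratio of 2.33 that the choice of sides fixes. These values rest on 181 to 453 reads in the tumours above the gap and 123 to 155 below it. The tumours next to the gap were knockdown 5, at 14.6 CPM (95% Poisson interval 12.8 to 16.6, counting error only), and knockdown 6, at 11.2 CPM (9.29 to 13.3), so that their counting intervals overlapped.

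**Figure D1:**
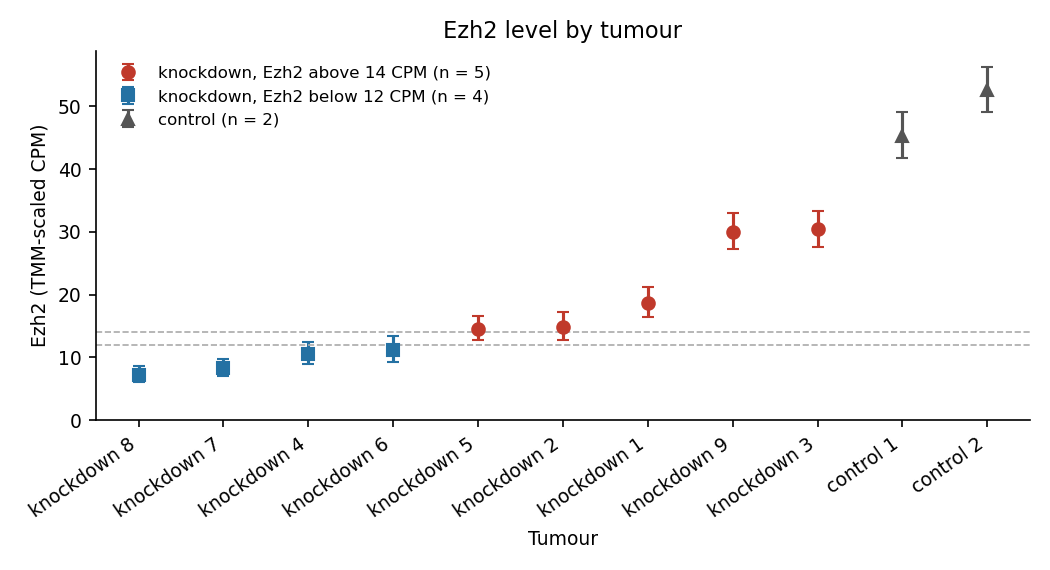
Ezh2 level (CPM, TMM-scaled) of each tumour, ordered within the knockdown group, with 95% Poisson counting intervals; dashed lines mark 12 and 14 CPM, circles are the 5 knockdown tumours above them, squares the 4 below and triangles the 2 controls. Knockdown 3 and 9, at 30.4 and 30.1 CPM, lie apart from the other 7, which run from 7.27 to 18.7 CPM.

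Depth and mitochondrial share overlapped between the sides. Libraries held 11209233 to 18638382 counts (higher against lower side, exact two-sided permutation p = 0.48), and the mitochondrial share was 8.95% ± 3.99 (SD, n = 5) with more Ezh2 and 7.71% ± 3.45 (SD, n = 4) with less (exact permutation p = 0.66). On the first principal component of the 9 tumours, which held 30.4% of the variance, knockdown 7 (45.0) and knockdown 9 (56.0) lay apart from the other 7 (-33.6 to -1.46), and each side holds 1 of them. Xist, the X inactivation RNA, was near 0 in knockdown 1, 7, 8 and 9 (0.108 to 1.10 CPM) and between 41.4 and 106 CPM in the other 5, so that each side holds 2 tumours almost without it. Y-linked Ddx3y was present in all 9 (15.7 to 131 CPM). The neural progenitor gene Nes was present in all 9 (278 to 484 CPM) but below both controls (2027 and 893 CPM). Olig2, a transcription factor of the oligodendrocyte lineage, was scarce (0.727 to 10.6 CPM against 17.3 and 45.2 CPM in the controls).

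No gene passed the test between the sides. Of 15210 genes other than Ezh2, 0 (0%) had an adjusted p under 0.05 (edgeR quasi-likelihood test, Benjamini-Hochberg adjustment), and the smallest adjusted p was 0.50. At an unadjusted p under 0.05 there were 924 genes (6.07%), 396 higher (2.60%) and 528 lower (3.47%) with more Ezh2. The sides did not overlap in 269 genes (1.77%), 128 of them higher (0.842%) and 141 lower (0.927%) with more Ezh2. limma-voom called 0 genes and DESeq2 called 7, namely Col27a1, Kcnj12, Ccnjl, Creb3l1, Flot2, Sh3gl3 and Fam82a1. All genes described below as higher or lower with more Ezh2 are therefore described by their values, and none passed edgeR unless stated.

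Among genes with more transcript where more Ezh2 remained, Col27a1, Kcnj12 and Ccnjl had the smallest p. Col27a1, a fibrillar collagen (mm9 chromosome 4, 62875038 to 62996025), was at 46.7, 55.4, 73.5, 56.7 and 63.8 CPM in knockdown 1, 2, 3, 5 and 9. It was at 28.0, 34.4, 28.9 and 29.4 CPM in knockdown 4, 6, 7 and 8. The 4 tumours with less Ezh2 thus lay close to the controls (26.7 and 26.1 CPM), and the lowest of the other 5 was above all of them. The log2 difference was 0.96 ± 0.14 (SE; edgeR, adjusted p = 0.50; DESeq2, adjusted p = 3.7e-05). Kcnj12, an inward rectifier potassium channel, ran from 7.05 to 11.9 CPM with more Ezh2 and from 2.54 to 3.63 CPM with less, a log2 difference of 1.39 ± 0.23 (SE). Here the tumours with more Ezh2 were nearer to the controls, at 11.8 and 9.52 CPM. Ccnjl, a cyclin-like gene, was at 18.2 to 28.5 CPM against 12.7 to 14.3 CPM, both ranges above the controls at 9.31 and 8.46 CPM.

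Of the other 9 genes that the naming rule took in this direction, 4 have known roles in neurons and the cytoskeleton. Neuron markers as a list had no steady direction. Of 33 tested, 21 lay lower with more Ezh2 (median log2 difference -0.19), which depended on knockdown 8, as given below. By correlation, 22 had a positive and 11 a negative r (median 0.14, but -0.51 without knockdown 3 and 9). Kif5a, a kinesin motor of axonal transport, was at 48.4 to 80.8 CPM with more Ezh2 and 17.6 to 38.0 CPM with less. Mapt, the microtubule-associated protein tau, was at 21.7 to 31.1 against 2.82 to 13.2 CPM, its low end being knockdown 6 alone. The septin Sept3 was at 7.59 to 12.1 against 3.18 to 5.66 CPM, and Nav1, a microtubule-binding neuron navigator, at 155 to 232 against 103 to 138 CPM. The lysine methyltransferase Setd6 was at 9.59 to 14.6 against 6.36 to 8.36 CPM and kept the exact rank order of Ezh2 over the 9 tumours (rho = 1.00). Xiap, an inhibitor of apoptosis, was at 95.4 to 127 against 72.2 to 88.1 CPM, with the controls at 131 and 125 CPM. Tmem161b (24.6 to 28.5 against 19.6 to 20.7 CPM), Thap2 (17.1 to 24.5 against 13.6 to 16.4 CPM) and Caskin2 (41.6 to 54.0 against 31.5 to 40.0 CPM) complete the group. The log2 differences of these 9 ran from 0.37 in Tmem161b to 1.52 in Mapt, with an adjusted p of 0.73 in each (edgeR).

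Among genes with less transcript where more Ezh2 remained, Creb3l1, a membrane-bound transcription factor that induces collagen genes (mm9 chromosome 2, 91822485 to 91864659), had the smallest p. It was at 19.8, 17.9, 17.0, 16.9 and 15.1 CPM in knockdown 1, 2, 3, 5 and 9. In knockdown 4, 6, 7 and 8 it was at 30.8, 27.8, 27.4 and 31.6 CPM. The tumours with more Ezh2 lay near the controls (15.5 and 21.0 CPM), and the gap between the sides was wider than the spread within either. The log2 difference was -0.77 ± 0.12 (SE; edgeR, adjusted p = 0.50; DESeq2, adjusted p = 5.9e-06). Flot2, a lipid raft scaffold, was at 38.4 to 54.3 CPM with more Ezh2 and 61.3 to 75.5 CPM with less. Sh3gl3, an endophilin of membrane trafficking, was at 7.37 to 9.22 against 10.8 to 23.7 CPM, with the controls lower than either side (2.69 and 3.82 CPM).

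The other genes taken in this direction included secreted and metabolic proteins. Itih5, a heavy chain of the inter-alpha-trypsin inhibitors that bind hyaluronan in the matrix, was at 20.3, 15.3, 2.90, 15.4 and 9.69 CPM in knockdown 1, 2, 3, 5 and 9. It was at 59.9, 33.6, 42.3 and 34.9 CPM in knockdown 4, 6, 7 and 8. The lowest value belonged to knockdown 3, the tumour with the most Ezh2, and the controls were as low (3.08 and 3.76 CPM). Olfml2a, a secreted olfactomedin-like protein, showed the same order of groups, at 7.57 to 31.6 CPM, 38.4 to 70.0 CPM and 3.92 to 4.64 CPM in the controls. Cybrd1, a ferric reductase, was at 2.52 to 8.70 against 9.73 to 30.0 CPM, and the selenoprotein Selm at 27.4 to 50.4 against 58.0 to 100.2 CPM. Ndufaf3, an assembly factor of mitochondrial complex I, was at 5.38 to 7.79 against at least 10.1 CPM, the phosphatase Dusp3 at 28.0 to 33.9 against 37.5 to 42.0 CPM, and Gltscr2, a nucleolar protein, at 70.9 to 103 against 106 to 144 CPM. The log2 differences of these 7 ran from -0.37 in Dusp3 to -1.75 in Itih5, again with an adjusted p of 0.73 in each (edgeR).

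**Figure D2:**
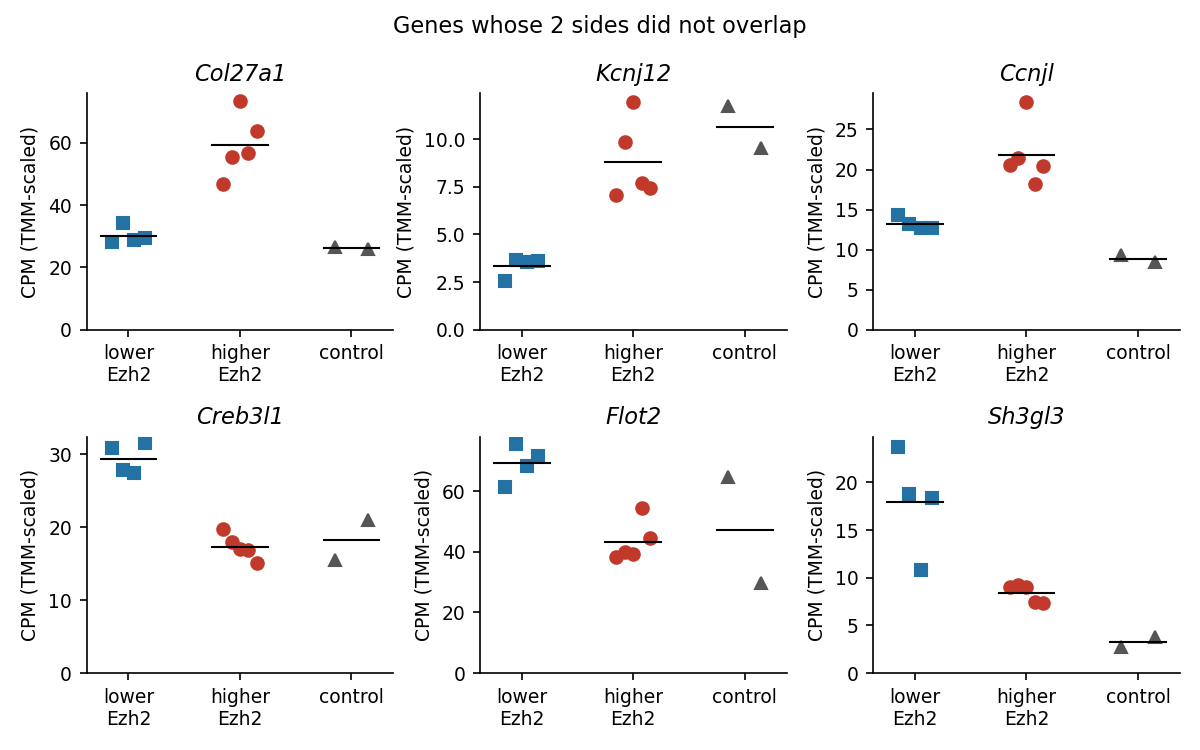
CPM (TMM-scaled) of 6 genes in each tumour, by side and in the 2 controls, with horizontal bars at the means; squares are the 4 tumours with less Ezh2, circles the 5 with more and triangles the controls. Col27a1, Kcnj12 and Ccnjl lay higher and Creb3l1, Flot2 and Sh3gl3 lower with more Ezh2 without overlap of the sides, and where the controls fell differed by gene.

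Using Ezh2 as a number in place of the sides, 5 genes passed. In the edgeR fit on log2 Ezh2 CPM over the 9 tumours, 5 of 15538 genes (0.0322%) had an adjusted p under 0.05, 2 rising (0.0129%) and 3 falling (0.0193%) with Ezh2. At an unadjusted p under 0.05 there were 2730 (17.6%), 1349 rising (8.68%) and 1381 falling (8.89%). These 5 are named because they are all that passed. Ncam1, the neural cell adhesion molecule (mm9 chromosome 9, 49310257 to 49607027), was at 70.9, 61.1, 88.9, 53.9 and 102 CPM in knockdown 1, 2, 3, 5 and 9 and at 54.8, 48.9, 49.6 and 38.5 CPM in knockdown 4, 6, 7 and 8. It was highest in the 2 tumours with the most Ezh2 and lowest in the 1 with the least, and the controls were higher still (175 and 115 CPM). Its log2 level rose by 0.58 ± 0.07 (SE) per doubling of Ezh2 (edgeR, adjusted p = 0.032). Fibcd1, a chitin-binding receptor (mm9 chromosome 2, 31668810 to 31701525), was scarce, at 2.66, 0.987, 4.28, 0.965 and 11.6 CPM with more Ezh2 and 0.822, 0.273, 0.427 and 0.431 CPM with less. It rose by 2.26 ± 0.29 (SE) per doubling (edgeR, adjusted p = 0.044), on values of which the lowest correspond to few reads, since 3 counts were worth 0.162 to 0.273 CPM.

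Itih2, Pygl and Ecscr fell with Ezh2. Itih2, another inter-alpha-trypsin inhibitor heavy chain (mm9 chromosome 2, 10016218 to 10053023), lies next to Itih5 (10075198 to 10178156). It was at 1.57, 4.2, 0.276, 6.18 and 0.664 CPM in knockdown 1, 2, 3, 5 and 9 and at 5.96, 6.18, 13.1 and 14.2 CPM in knockdown 4, 6, 7 and 8. The 2 tumours with the most Ezh2 had the least Itih2, close to the controls (0.308 and 0.564 CPM), and the 2 with the least Ezh2 had the most. The slope was -2.38 ± 0.27 (SE) per doubling (edgeR, adjusted p = 0.032). Pygl, the liver isoform of glycogen phosphorylase (mm9 chromosome 12, 71291798 to 71332475), was at 7.37, 14.2, 5.11, 12.1 and 4.05 CPM with more Ezh2 and at 19.6, 21.9, 40.8 and 21.3 CPM with less. It fell by 1.44 ± 0.18 (SE) per doubling (edgeR, adjusted p = 0.032), but the controls, with the most Ezh2 of all, were at 12.5 and 23.4 CPM. Ecscr, an endothelial cell surface protein (mm9 chromosome 18, 35872740 to 35882010), was at 10.5, 13.7, 8.35, 19.1 and 8.10 against 19.3, 18.1, 24.7 and 25.8 CPM. It fell by 0.84 ± 0.10 (SE) per doubling (edgeR, adjusted p = 0.032).

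The number of genes called by this fit depended on single tumours. It was 0 without knockdown 1, 2, 3, 4 or 6, 2 without knockdown 5 or 8, 6 without knockdown 9 and 43 without knockdown 7. It was 52 without knockdown 7 and 9, 348 with a term for those libraries and 0 without knockdown 3 and 9. These repeats of the fit were chosen after seeing the data. Of the 60 adjusted p-values of the 5 genes in these 12 fits, 46 were above 0.05. Their slopes kept their sign in each fit. The 5 genes were chosen by their p in these same libraries, so this was favoured in advance and is no support.

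**Figure D3:**
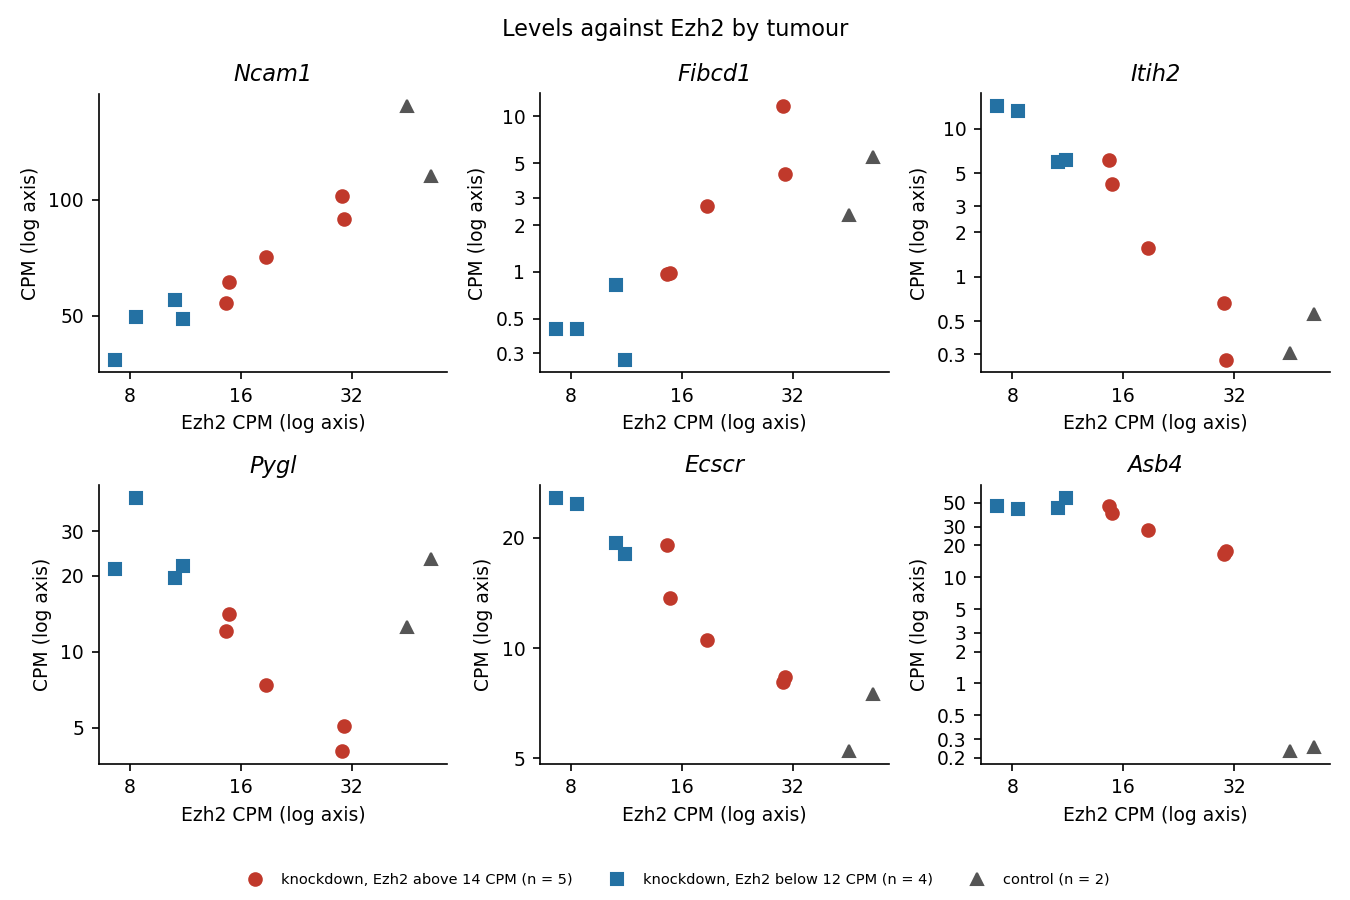
CPM of 6 genes against Ezh2 CPM (both axes logarithmic) for the 5 knockdown tumours with more Ezh2 (circles), the 4 with less (squares) and the 2 controls (triangles). Ncam1 and Fibcd1 rose and Itih2, Pygl and Ecscr fell with Ezh2 over the knockdown tumours, and Asb4, which did not pass, was low in both knockdown 3 and 9 (17.8 and 16.5 CPM) and near 0 in the controls.

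No correlation with Ezh2 passed either. Pearson's r of log2(CPM + 1) with Ezh2 CPM was computed for 15210 genes over the 9 tumours, with exact two-sided permutation p over all orderings of the tumours. After Benjamini-Hochberg adjustment 0 genes passed (0%; smallest adjusted p = 0.084), and 2355 (15.5%) had an exact p under 0.05, 1166 positive (7.67%) and 1189 negative (7.82%). Spearman's rho also gave 0, with 1810 at an unadjusted p under 0.05, and the median r of all genes was 0.03. Since Ezh2 was far higher in knockdown 3 and 9 than in the rest, the r of a named gene is given again over the other 7 tumours.

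By the naming rule, which asks that the sign hold without knockdown 3 and 9, the 6 highest correlations belonged to Gabpa, Ncam1, Nfatc3, Hnrnpd, Tecr and Pigo. Gabpa, an ETS transcription factor of nuclear genes for mitochondria, was at 75.8, 72.9, 87.3, 76.5 and 85.9 CPM with more Ezh2 and at 70.7, 70.9, 68.2 and 72.3 CPM with less. Its r was 0.96 (exact permutation p = 0.00066), its rho 0.85 (exact p = 0.0061) and its r without knockdown 3 and 9 0.76. For Ncam1 r was 0.96 (exact permutation p = 8.5e-05), rho 0.90 (exact p = 0.0020) and r without these tumours 0.90. Nfatc3, a transcription factor activated by calcium, had r = 0.95 (0.85 without knockdown 3 and 9), and Hnrnpd, an RNA-binding protein of mRNA decay, r = 0.95 (0.70). Tecr, an enzyme of fatty acid elongation, and Pigo, an enzyme of GPI anchor synthesis, both had r = 0.94 (0.70 and 0.78). The largest of these 6 log2 differences between the sides was that of Ncam1, 0.65 ± 0.20 (SE), and the smallest that of Gabpa, 0.17 ± 0.09 (SE).

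The 6 lowest by the same rule belonged to Igfbp7, A930038C07Rik, Itih2, 6230427J02Rik, Marveld2 and Rnf185. Igfbp7, a secreted binding protein of vessel walls and matrix, was at 252, 249, 111, 278 and 129.7 CPM with more Ezh2 and at 324, 283, 302 and 386 CPM with less. The sides did not overlap, and knockdown 3 and 9 were near the controls (117 and 97.5 CPM). Its r was -0.97 (exact permutation p = 9.6e-05), its rho -0.97 (exact p = 0.00017) and its r without knockdown 3 and 9 -0.85. Itih2 had r = -0.96 (exact permutation p = 3.0e-05), rho = -0.95 (exact p = 0.00035) and r = -0.95 without them. The genes A930038C07Rik and 6230427J02Rik, which carry provisional symbols in the deposited annotation, had r = -0.96 each (-0.78 and -0.83). Marveld2, a protein of tricellular tight junctions, had r = -0.95 (-0.79), and Rnf185, a ubiquitin ligase of the endoplasmic reticulum, r = -0.95 (-0.91). 6230427J02Rik was at 17.2 to 27.9 against 28.1 to 30.8 CPM, both far above the controls at 2.92 and 2.76 CPM. Other gene models overlap 16 of the 44 genes named here for their difference, slope or correlation: Col27a1, Ccnjl, Mapt, Nav1, Caskin2, Pygl, Olfml2a, Dusp3, Gltscr2, Gabpa, Ncam1, Nfatc3, Hnrnpd, Igfbp7, 6230427J02Rik and Ecscr. Their reads may include those of the other gene.

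No tested partner of Ezh2 in PRC2 passed between the sides. Suz12, the zinc finger core subunit, was at 96.6, 98.9, 131, 122 and 79.8 CPM with more Ezh2 and at 109, 111, 74.0 and 104 CPM with less. Eed, which binds the methylated histone tail, was at 37.0 to 48.8 against 36.5 to 50.0 CPM, and Ezh1, the alternative methyltransferase, at 50.9 to 64.5 against 50.5 to 68.1 CPM. All 3 overlapped widely between the sides, and Ezh1 was lower in the controls (38.3 and 28.6 CPM). The log2 differences were 0.07 ± 0.17, -0.05 ± 0.12 and -0.05 ± 0.11 (SE), and r was 0.10, -0.35 and -0.16 (0.24, -0.01 and 0.30 without knockdown 3 and 9, a change of sign for Ezh1). The other tested subunits were the histone-binding Rbbp4 (log2 difference 0.03 ± 0.11) and Rbbp7 (-0.01 ± 0.10), the accessory subunits Jarid2 (0.21 ± 0.23), Aebp2 (0.13 ± 0.09), Mtf2 (0.04 ± 0.14), Phf1 (0.07 ± 0.13) and Phf19 (-0.01 ± 0.26), Lcor (0.27 ± 0.25) and E130012A19Rik (-0.06 ± 0.19). Of these 12 subunits 0 passed edgeR, 0 had an unadjusted p under 0.05 and 0 were without overlap. Their median log2 difference was 0.03 against 0.00 in all tested genes. The median r was 0.08, and 0.24 without knockdown 3 and 9. Without these 2 tumours single values of r ran from -0.58 in Rbbp7 to 0.81 in Lcor.

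PRC1 subunits lay slightly higher with more Ezh2, 16 of 20 positive with a median log2 difference of 0.05, but 11 of 20 were positive without knockdown 7 (median 0.01). Bmi1, which stimulates the ubiquitin ligase of the complex, was at 113, 102, 119.8, 97.6 and 121 CPM with more Ezh2 and at 88.9, 80.7, 96.9 and 94.2 CPM with less. It was the 1 gene of these 20 without overlap, against 0.842% of all genes higher without overlap. Its log2 difference was 0.28 ± 0.10 (SE) and its r 0.85, and 0.63 without knockdown 3 and 9. The controls were higher still (123 and 141 CPM). Kdm2b, which recruits a variant PRC1 to CpG islands, was at 53.6 to 78.4 against 42.1 to 57.2 CPM (r = 0.83, and 0.69 without knockdown 3 and 9). Of 16 other enzymes and remodelers that act on or against lysine 27 methylation, all 16 lay higher with more Ezh2, at a median log2 difference of 0.16 and a median r of 0.60 (0.44 without knockdown 3 and 9). Among them were the trithorax methyltransferases Mll1 (239 to 355 against 137 to 242 CPM) and Mll2 (503 to 626 against 208 to 532 CPM), in which knockdown 7 and 8 were the lowest tumours. The count was 12 of 16 both without knockdown 7 and 9 (median 0.08) and without knockdown 3 and 9 (median 0.06).

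Genes of cell division lay higher with more Ezh2. All 54 tested genes of G2 and M phase had a higher mean with more Ezh2 and a positive r, against 7725 and 7924 of 15210 in all tested genes. Their median log2 difference was 0.38 and their median r 0.67 (0.57 without knockdown 3 and 9), whereas the same over all genes were 0.00 and 0.03. At an unadjusted p under 0.05, 6 of the 54 were higher by edgeR (2.60% of all genes; 0 passed adjusted) and 29 were positively correlated (7.67% of all genes), and 0 were without overlap. The number of positive members was 53 or 54 in 22 other settings, with medians from 0.24 to 0.52. Genes of this list are transcribed together in dividing cells, so that 54 genes are not 54 independent observations.

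The mean level of the list, log2(CPM + 1), was 5.77, 5.89, 6.49, 5.81 and 5.83 in knockdown 1, 2, 3, 5 and 9. It was 5.79, 5.92, 5.09 and 5.46 in knockdown 4, 6, 7 and 8. Knockdown 3 was the highest and knockdown 7 and 8 the lowest, whereas knockdown 4 and 6 lay within the range of the other side. The controls, which had the most Ezh2, were at 4.83 and 5.35, in or below the range of the 2 lowest knockdown tumours, so that the order among the knockdown tumours did not extend to them. Smc4, a condensin subunit, was at 194, 195, 259.5, 201 and 258 CPM against 194, 194, 145 and 133 CPM, with controls at 92.4 and 104 CPM. Spc25, of the kinetochore, was at 20.1 to 35.2 against 12.4 to 20.1 CPM.

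Genes of S phase and DNA repair had smaller differences in the same direction. Of 52 S phase genes 49 lay higher with more Ezh2, at a median of 0.25 and a median r of 0.55 (4 at an unadjusted p under 0.05 by edgeR, against 2.60% of all genes), but 43 of 52 without knockdown 3 (0.14) and 45 without knockdown 7 (0.11). Uhrf1, which couples DNA methylation to replication, was at 79.5 to 121 against 49.0 to 84.8 CPM (log2 difference 0.55 ± 0.18 SE; rho = 0.97). Of 45 DNA repair genes 40 lay higher (median 0.14), but 27 without knockdown 7 (0.05) and 28 without knockdown 3 (0.04). Xrcc2, of homologous recombination, was at 14.9 to 26.4 against 11.9 to 16.8 CPM. Msh6, a mismatch repair protein, was at 47.6 to 68.5 against 27 to 45.0 CPM. It was the 1 gene of the repair list without overlap, against 0.842% of all genes higher without overlap. Of 17 genes of the E2F and Rb family 12 lay higher (median 0.16; 9 without knockdown 7, 0.01), with E2f3, an activator of S phase entry, at 60.1 to 87.5 against 47.7 to 62.8 CPM and Lin54 at 27 to 37.3 against 20.3 to 27.4 CPM.

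The cyclins, kinases and inhibitors of the G1 phase did not share a direction, 7 of 13 lying higher at a median of 0.01. Cdk2, the kinase of S phase entry, was at 61.5 to 77.4 against 47.0 to 61.9 CPM. Cdkn2b, the p15 inhibitor of cyclin D kinases, was at 373, 383, 273, 357 and 385 CPM with more Ezh2 and at 447, 470.3, 445 and 554 CPM with less. It was the 1 member without overlap, against 0.927% of all genes lower without overlap. Its log2 difference was -0.45 ± 0.14 (SE) and its r -0.79 (-0.86 without knockdown 3 and 9). The controls were at 364 and 406 CPM. Its neighbour Cdkn2a, part of the conditional Ink4a/Arf locus, was at 26.4 to 49.5 against 35.1 to 40.2 CPM. The counts do not separate deleted from remaining exons, so Cdkn2a and Trp53 (20.5 to 24.3 against 21.2 to 24.7 CPM) do not check the engineered alleles.

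**Figure D4:**
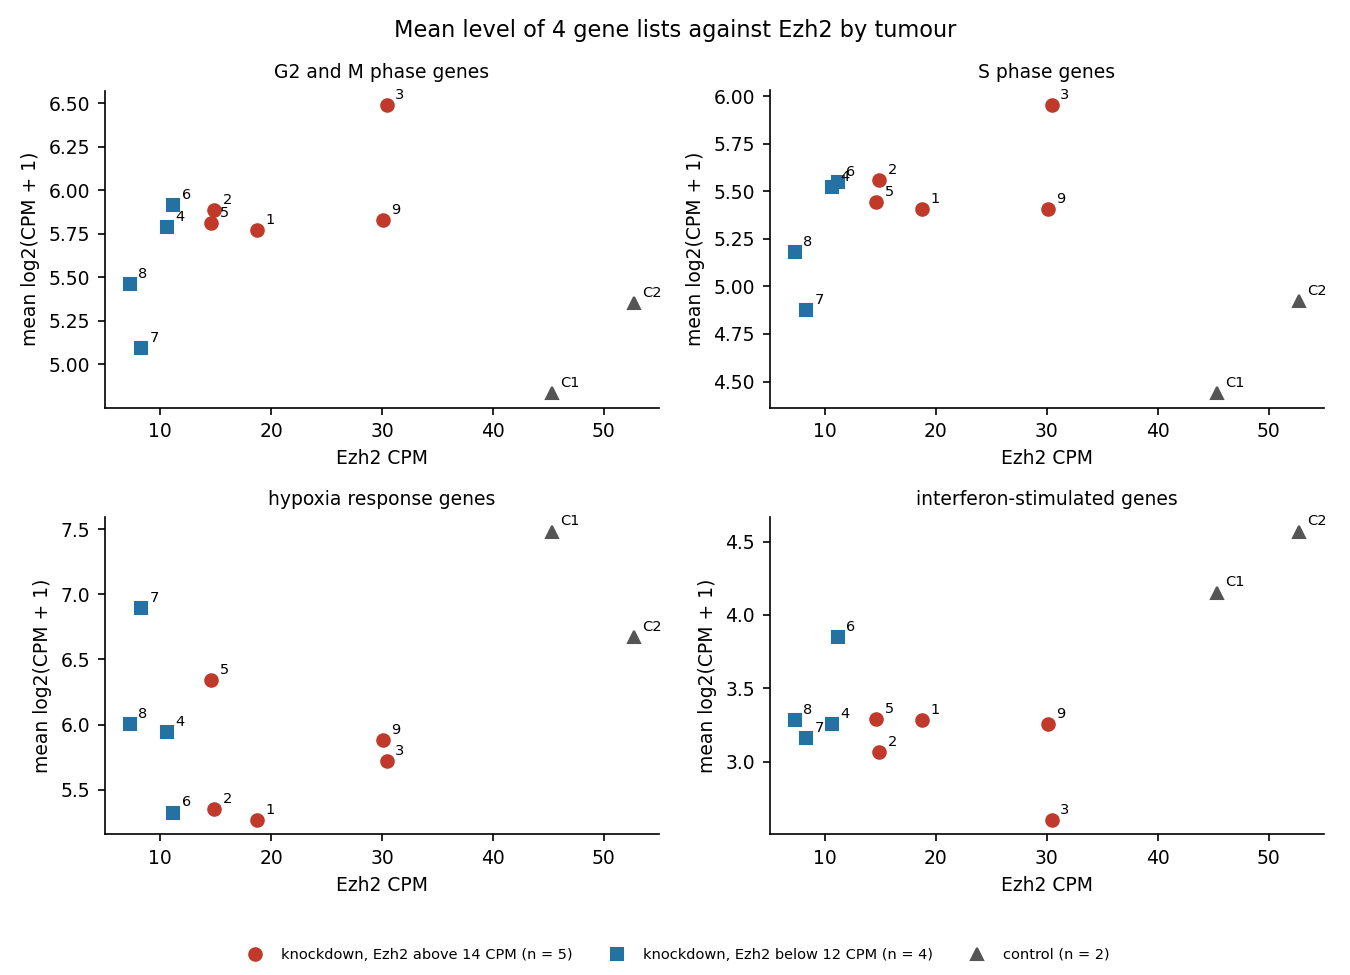
Mean log2(CPM + 1) of 4 gene lists against Ezh2 CPM for each tumour, numbered by replicate (C1 and C2 are controls). G2 and M phase genes were highest in knockdown 3 (6.49) and lowest among knockdown tumours in 7 (5.09), the controls lay low in both cell cycle lists despite the most Ezh2, and hypoxia genes were highest among knockdown tumours in 7 (6.90).

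Developmental regulators, the classical targets of PRC2, showed no common order between the sides. Of 37 tested members 21 lay higher and 16 lower with more Ezh2 (median log2 difference 0.04, median r -0.14, and 0.09 without knockdown 3 and 9), with 0 without overlap. A further 47 of the 84 matched members were too low to be tested. Meis2, a homeobox factor, was at 19.6 to 27.7 with more Ezh2 against 26.7 to 55.1 CPM with less, and Gata2, a zinc finger factor, at 8.03 to 20.9 against 5.82 to 9.38 CPM. The 7 tested Hox genes, all of the Hoxa cluster, lay higher with more Ezh2 in all 22 other settings as well as in the edgeR fit (median 0.75; 0 at an unadjusted p under 0.05). Hoxa5 was at 29.9, 21.0, 10.8, 14.8 and 3.98 CPM with more Ezh2 and at 13.7, 8.00, 5.13 and 2.42 CPM with less. Knockdown 7, 8 and 9 were the lowest, 2 tumours with little and 1 with much Ezh2, and r was 0.11 over 9 tumours but 0.93 without knockdown 3 and 9. Of the 4 tumours almost without Xist, knockdown 7, 8 and 9 thus had the least Hoxa5 and knockdown 1 the most.

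Imprinted genes (15 of 28 higher, median 0.04) and oncofetal or pluripotency genes (4 of 15 higher, median -0.19) had no member without overlap. Tfpi2, an imprinted protease inhibitor, was at 2.19 to 7.40 against 4.21 to 17.3 CPM, and Lin28b, a fetal RNA-binding protein, at 0.664 to 6.62 against 3.91 to 9.66 CPM. Lin28b was nearly absent from the controls (0.231 and 0.0626 CPM).

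The genes that set knockdown apart from control were asked whether they follow residual Ezh2. The same knockdown libraries enter both comparisons, so that they are not independent. Of 16241 genes, 1674 (10.3%) were higher and 2116 (13%) lower in knockdown than in control (edgeR, adjusted p under 0.05). Of the higher ones, 1645 were tested between the sides, with 733 positive and 912 negative log2 differences, a median of -0.03 and 7 higher and 29 lower without overlap (0.842% and 0.927% of all tested genes). Of the lower ones, 1957 were tested, with 871 positive and 1086 negative log2 differences, a median of -0.02 and 20 higher and 13 lower without overlap. The median r was -0.15 for the higher genes and 0.02 for the lower ones, but 0.15 and -0.12 without knockdown 3 and 9, so that its sign depended on those tumours in both sets. Single-gene correlations at an exact permutation p under 0.05 were 69 positive and 223 negative among the 1645 higher genes. Among the 1957 lower genes they were 152 positive and 73 negative. Over all tested genes the shares were 7.67% positive and 7.82% negative. Only the 223 lay above its share, while the 152 lay near it and the other counts below. The mean log2(CPM + 1) of the higher genes was lowest in knockdown 9 and 3 (4.43 and 4.48) and 4.55 to 4.79 in the other 7, against 3.43 and 3.46 in the controls.

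Single genes of these sets differed. Asb4, an imprinted ubiquitin ligase adaptor (mm9 chromosome 6, 5333386 to 5383022), was at 27.7, 40.0, 17.8, 46.3 and 16.5 CPM in knockdown 1, 2, 3, 5 and 9 and at 44.4, 56.1, 43.8 and 46.6 CPM in knockdown 4, 6, 7 and 8. Its 2 lowest values were those of the 2 tumours with the most Ezh2, though still far above the controls at 0.231 and 0.251 CPM. Its r was -0.95 (exact permutation p = 0.0015), its rho -0.78 (exact p = 0.017) and its r without knockdown 3 and 9 -0.70. Agtr2, the type 2 angiotensin receptor, ran from 1.26 to 39.5 CPM with more Ezh2 and from 11.9 to 156 CPM with less (r = -0.74, and -0.56 without knockdown 3 and 9). Nrk, a kinase, was at 16.4 and 18.0 CPM in knockdown 4 and 6 but at 0.427 and 1.29 CPM in knockdown 7 and 8, with 1.79 to 4.03 CPM on the other side (r = -0.17, rho = 0.17, and r = 0.11 without knockdown 3 and 9).

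Among the genes lower in knockdown than in control, the 3 with the largest folds lay below both controls in every knockdown tumour. Rgs8, a regulator of G protein signalling, was at 0.470 to 2.99 CPM with more Ezh2 and 1.03 to 2.38 CPM with less, against 201 and 15.3 CPM in the controls. Mmp13, a collagenase, was at 2.12 to 18.5 CPM in 4 of the tumours with more Ezh2 and 87.8 CPM in knockdown 3, and at 5.31 to 18.7 CPM in those with less, against 561 and 1190.1 CPM. The mast cell protease Mcpt1 was at 0.265 to 2.77 and 0.0611 to 5.60 CPM against 91.9 and 69.7 CPM. The r of each of the 3 changed sign when tumours were left out: it was 0.25 for Rgs8 and -0.86 without knockdown 3 and 9, 0.18 for Mmp13 and -0.57 without knockdown 3, and -0.33 for Mcpt1 and 0.06 without knockdown 3 and 9.

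Interferon, myeloid and matrix genes mostly lay lower with more Ezh2, and no member passed. In bulk tumours, fewer cells of a type and less RNA per cell cannot be told apart. Of 31 interferon-stimulated genes 26 lay lower (median log2 difference -0.39, median r -0.43), 5 at an unadjusted p under 0.05 and 2 without overlap (3.47% and 0.927% of all genes). Ifi47, an interferon-inducible GTPase, was at 6.11, 5.27, 2.21, 5.02 and 7.50 CPM with more Ezh2 and at 7.06, 11.9, 26.3 and 19.1 CPM with less. Gbp2, a guanylate-binding protein, was at 5.52 to 14.1 against 14.7 to 22.8 CPM without overlap. The list rested on single tumours: 18 of 31 lay lower without knockdown 6 (median -0.15), 21 without knockdown 3 (-0.26), and the median r was -0.02 without knockdown 3 and 9. Of 18 antigen presentation genes 15 lay lower (median -0.22), but 10 without knockdown 3 (-0.05).

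Markers of macrophages and monocytes lay lower with more Ezh2 in 23 of 27 genes (median -0.33; 3 at an unadjusted p under 0.05, against 3.47% of all genes), a direction kept by 21 to 24 members with each tumour left out (medians -0.46 to -0.21). Their summed level ran from 5732 to 9987 CPM with more Ezh2, from 7145 to 14197 CPM with less and from 9650 to 16626 CPM in the controls, with 0 of 28 matched markers absent from all 9 tumours. Tgfbi, a matrix protein of macrophages and stroma, was at 312, 353, 248, 376 and 212 CPM against 415, 409, 381 and 995 CPM, the last being knockdown 8. The Fc receptor Fcgr3 was at 22.9 to 50.1 against 45.0 to 97.3 CPM. Of 21 microglia markers 15 lay lower (median -0.16), with Tyrobp, an adaptor of myeloid receptors, at 22.1 to 32.7 against 33.4 to 51.4 CPM without overlap, and the protease Ctss at 60.0 to 126 against 113 to 176 CPM. Their summed level ran from 703 to 1296 CPM and from 1053 to 1368 CPM. Markers of lymphocytes and natural killer (NK) cells, taken as 1 list, were scarce, summing to 7.23 to 16.5 CPM with more Ezh2 and 14.5 to 49.1 CPM with less. Perforin, Prf1, was at 0 to 1.80 against 0.891 to 20.2 CPM, the highest being knockdown 8. What part the share of these host cells has in the differences between the sides was not tested.

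Pericyte, smooth muscle and fibroblast markers lay lower in 14 of 20 genes (median -0.30). Their sum ran from 1518 to 3461 CPM with more Ezh2 and from 2136 to 5750 CPM with less. The median r of these markers was -0.39, but -0.06 without knockdown 3 and 9. Dcn, the matrix proteoglycan decorin, was at 98.0, 82.9, 16.4, 141 and 20.4 CPM with more Ezh2 and at 376, 287, 101 and 659 CPM with less. Knockdown 3 and 9 had the least (r = -0.90, and -0.64 without them), and the controls had 24.6 and 54.2 CPM. Anpep, an aminopeptidase of pericytes and myeloid cells, was at 11.5 to 26.3 against 22.6 to 32.1 CPM. Of 34 matrix and mesenchymal genes 25 lay lower (median -0.22), with the growth factor Tgfb1 at 104 to 158 against 167 to 197 CPM without overlap. The median r of this list was -0.39, but -0.11 without knockdown 3 and 9. Endothelial markers split 14 higher and 8 lower (median 0.06) but had 5 positive and 17 negative r (median -0.27, and 0.66 without knockdown 3 and 9), and their sum ran from 401 to 808 CPM and from 627 to 769 CPM.

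Hypoxia genes lay lower with more Ezh2 in 29 of 31 cases (median -0.33), and this rested on knockdown 7. Without that tumour 14 of 31 lay lower (median 0.05), and knockdown 7 had the highest mean level of the list, 6.90, among the knockdown tumours, which otherwise ran from 5.27 to 6.34. The lysyl oxidase Lox was at 3.85 to 22.5 CPM with more Ezh2 and at 24.9, 14.4, 67.2 and 34.3 CPM in knockdown 4, 6, 7 and 8, and its relative Loxl2 at 84.1 to 189 against 165 to 229 CPM. Of 19 glycolysis genes 14 lay lower (median -0.24; 0.03 without knockdown 7). The 12 mitochondrially encoded genes all lay higher (median 0.29), but 8 of 12 without knockdown 1, 2, 4 or 7, and their median r was -0.23 over the 9 tumours and 0.58 without knockdown 3 and 9.

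Markers of neural lineages showed no shared direction beyond single genes. In bulk tumours, transcripts of tumour cells and of host brain cells cannot be told apart. Of 17 oligodendrocyte precursor genes 14 lay higher with more Ezh2 (median 0.16), but 8 without knockdown 9 (-0.02). Sox8, a glial transcription factor, was at 87.8, 44.9, 74.1, 26.1 and 84.7 CPM with more Ezh2 and at 29.3, 8.27, 29.0 and 10.7 CPM with less, a log2 difference of 1.71 ± 0.48 (SE; r = 0.77, and 0.74 without knockdown 3 and 9). The neural stem cell genes (10 of 14 higher, median 0.10) included Msi1, an RNA-binding protein of progenitors, at 47.1 to 62.1 against 32.2 to 48.3 CPM, and the filament Vim, at 1712 to 2690.0 against 2137 to 3368 CPM. Astrocyte markers (12 of 20 higher, median 0.06) and myelin genes (5 of 14 higher, median -0.07) had medians near that of all genes. Neuron markers lay lower in 21 of 33 (median -0.19), but 14 of 33 without knockdown 8 (0.19). Stmn2, a neuronal tubulin regulator, was at 37.5 and 85.0 CPM in knockdown 7 and 8 and at 1.71 to 7.86 CPM in the other 7 tumours.

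**Figure D5:**
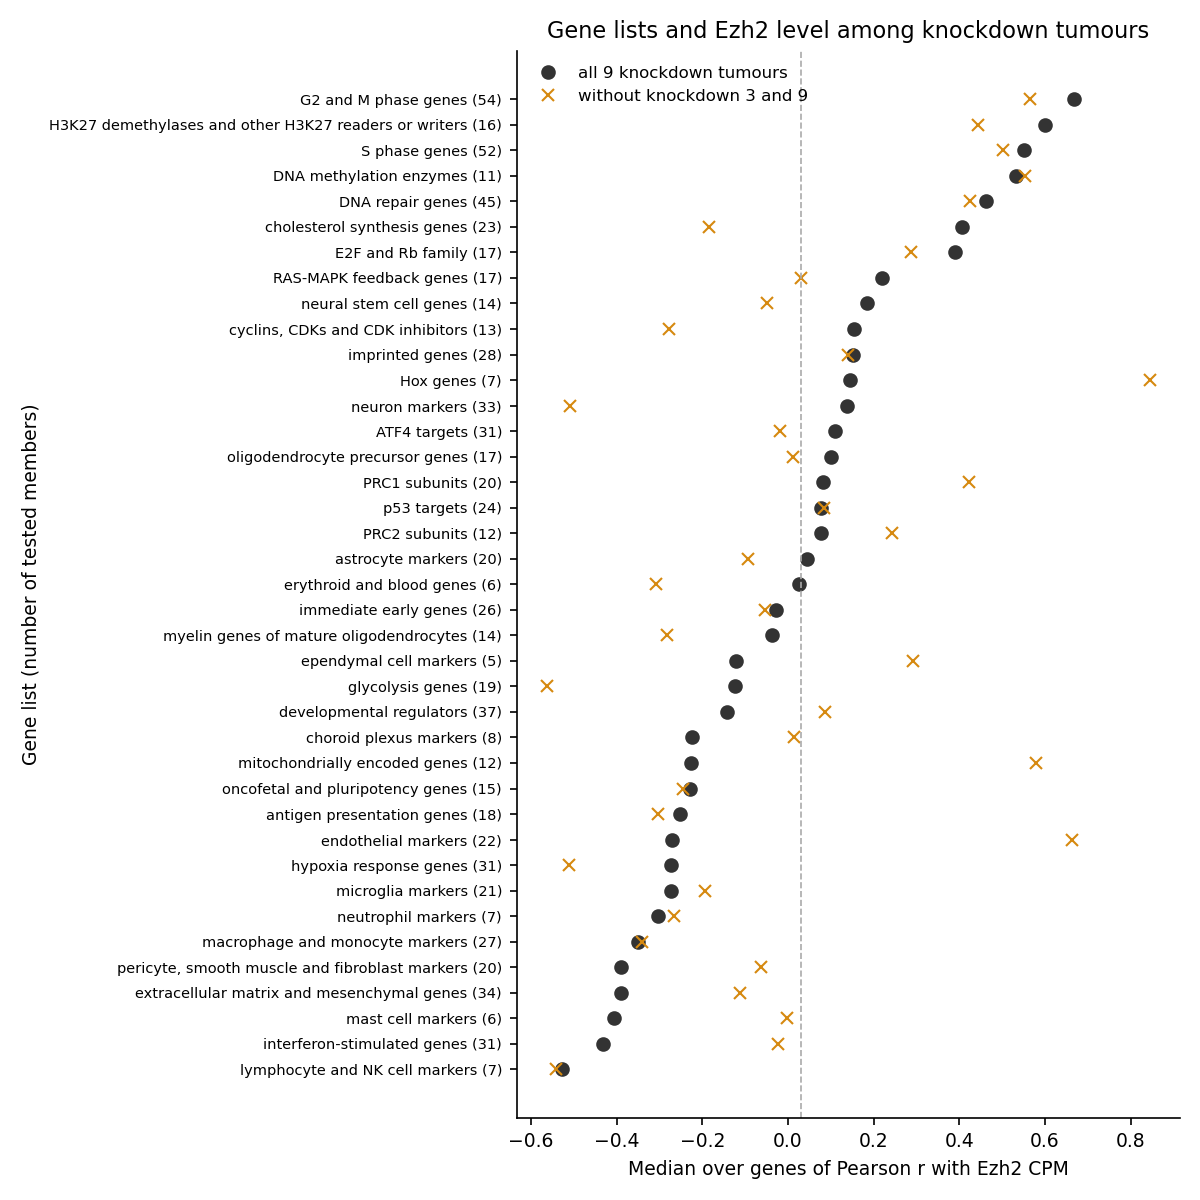
Median over the tested members of Pearson's r with Ezh2 CPM for each gene list with at least 5 tested members, over all 9 knockdown tumours (dots) and without knockdown 3 and 9 (crosses); the dashed line is the median of all genes (0.03). G2 and M phase genes had the highest median (0.67) and lymphocyte and NK cell markers the lowest (-0.53). Lists such as Hox genes (0.14 and 0.84) and neuron markers (0.14 and -0.51) depended on the tumours with the most Ezh2.

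The genes beside Ezh2 on chromosome 6 were checked for a shared shift. Of 24 genes that start within 1 Mb of Ezh2, 14 were tested, 12 with a higher mean with more Ezh2 (median log2 difference 0.12) and 13 with a positive r (median 0.48, and 0.30 without knockdown 3 and 9). The r values ran from -0.41 in Zfp783 to 0.67 in Krba1 and Zfp746, 0 genes were without overlap and 0 had an unadjusted edgeR p under 0.05. Cul1, a ubiquitin ligase scaffold, was at 119 to 143 against 119 to 146 CPM.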

How the data were processed

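Messenger RNA was sequenced from 9 knockdown and 2 control tumours. Per the labels' protocols, RNA was extracted with TRIzol and prepared with TruSeq RNA kits for a HiSeq2000. The authors deposited 1 table of whole-number read counts for 27687 Ensembl genes with mm9 coordinates. Per the submitters' processing notes, TopHat 1.4.0, HTSeq and mm9 were used, while the sources used here give neither their settings nor the use of strand.

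Groups and replicate numbers came from the sample titles. The sides, the gene lists and the rule for named genes were chosen with earlier results of these data known. Counts were tested with edgeR 4.0.16 in R 4.3.3 on the 9 knockdown libraries (filterByExpr on the side, TMM, quasi-likelihood F-test, no covariates, Benjamini-Hochberg, threshold 0.05). Ezh2 was left out of every count of genes. The SE is the size of the log2 difference divided by the square root of F. Libraries held 11209233 to 18638382 counts, and the common biological coefficient of variation was 32.5%. No pair of libraries was a copy of another (smallest chi-square per degree of freedom 11.2). CPM shown were scaled by TMM over all 11 libraries. A log2 value of lists and correlations, computed from the deposited counts, is log2(CPM + 1). Correlations used Python 3.11.15 with all orderings of the 9 tumours. Alternatives were limma-voom (limma 3.58.1), DESeq2 1.42.0, other scalings and filters, Ezh2 as a number, and tumours left out. Tests were checked on simulated data. Of the list symbols, 944 matched by symbol, 11 by identifier and 2 by an older symbol, and 14 did not match.

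Named genes were, after Ezh2, the 12 in each direction with the smallest p among genes without overlap between sides, an average log2 CPM of at least 2 and an established symbol (since none passed), the 6 highest and 6 lowest r whose sign held without knockdown 3 and 9, the 2 with the smallest p of each list, and the 3 largest folds in each direction between knockdown and control. Some items are not reported here.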

Additional observations from a re-analysis of the deposited data

Results flagged for a closer look

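Each of 143 sets of 9 knockdown values was checked for a single tumour far from the rest, by Dixon's ratio of the gap to the range at its 95% critical value. For genes the ratio was taken on log2(CPM + 1), though CPM are printed below. In 6 sets the highest or lowest tumour stood apart, and chance alone gives about 1 in 20.

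Mapt, tau, was at 2.82 CPM in knockdown 6 against a median of 21.7 CPM, so that the low end of the side with less Ezh2 is that tumour. Mobp, a myelin gene, was at 15.8 CPM in knockdown 7 against a median of 61.1 CPM. Tgfbi was at 995 CPM in knockdown 8 against a median of 376 CPM. Fosb, an immediate early gene, was at 276 CPM in knockdown 5 against a median of 5.71 CPM, and the mean log2(CPM + 1) of 26 immediate early genes was 6.39 in that tumour against a median of 5.2. Choroid plexus markers had a mean of 4.06 in knockdown 7 against a median of 3.20, and without this tumour their median log2 difference between the sides was 0.29 instead of -0.79.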

How the results depend on the processing

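No gene passed between the sides in edgeR with other size factors, filters, tumours left out, added terms or controls in the fit, nor in limma-voom (0 in each). DESeq2 called 7 genes and Ezh2 as a number 5. For the correlation, 0 genes passed except 3 with RLE size factors. Counts of the fit on log2 Ezh2 ran from 0 to 43 with 1 tumour left out, and were 348 with a term for knockdown 7 and 9, 52 without them and 0 without knockdown 3 and 9. Of 1759 repeats of the side difference over 80 genes 7 changed sign, all among 3 genes that differ between knockdown and control: Rgs8, at 0.12 with Ezh2 as a number and above 0 without knockdown 1, 5 or 7 (range -0.63 to 0.095 with 1 tumour left out), Mmp13, below 0 without knockdown 3 (range -0.16 to 1.48), and Mcpt1, above 0 without knockdown 8 (range -0.94 to 0.38) and at 0.47 in limma-voom. Of 288 repeats of r over 18 genes 4 changed sign: Nrk at 0.17 and Rgs8 at -0.10 as rho, Rgs8 without knockdown 9 (range -0.19 to 0.46) and Mmp13 without knockdown 3 (range -0.57 to 0.79). The cause was not tested. Genes named for their side difference or their r were chosen by these same values. Their kept signs were thus favoured in advance and do not count as support. No paired analysis was possible because no replicate number is on both sides. With 5 against 4 tumours whose Ezh2 levels are near each other at the gap, a p above the threshold does not show equal levels.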
